A study of Mus musculus with 2 samples.

Results

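The genes described here build and run the DNA replication machinery or make the deoxynucleotides it consumes, and were read in neutrophils of mouse bone marrow. They were chosen by name: 49 genes were listed by their known role, and a gene was read where the array held a probe set annotated with its symbol alone. Of the 49 genes, 48 had such a probe set, with 107 probe sets between them, out of 18194 genes and 45101 probe sets on the array. The signal of Chaf1a was not analysed here.

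The study has 1 group. Bone marrow of C57BL/6 mice, an inbred laboratory strain, was stained for the granulocyte antigen Gr-1 and for CD48, which most other blood cells carry, and dead cells were marked with DAPI. Cells bright for Gr-1 and negative for CD48 and DAPI were sorted in 2 independent experiments without any treatment, and 200 ng of total RNA from each gave 1 Affymetrix expression array, called replicate 2 and replicate 1 after their titles. The sources used here give neither the age and number of the mice nor whether mice were pooled. All 12 markers of neutrophils were above background on both arrays, among them Camp, with signals of 39049 on replicate 2 and 26404 on replicate 1. Cd48 was below background on each, at 41.2 on replicate 2 and 3.31 on replicate 1. The experiment cannot be told apart from anything else that differed between the 2 arrays, and in bulk RNA fewer cells of a type and less RNA per cell cannot be told apart.

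A cell prepares its DNA for copying when the origin recognition complex, with Cdc6 and Cdt1, loads the ring of Mcm2 to Mcm7 onto DNA, and geminin (Gmnn) later blocks a second loading. Cdc45 and the GINS complex turn that ring into a moving helicase, polymerase alpha with primase starts each strand, and polymerases delta and epsilon extend it on the sliding clamp Pcna. Neutrophils are made in the marrow from dividing precursors and leave the cell cycle for good late in maturation, while factors of the E2F family switch most of these genes on as cells enter S phase.

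Because E2F factors and the CCAAT-binding factor NF-Y are known regulators of these genes, the promoters of a few members are shown first. They are examples and do not stand for all members, most of which hold no E2F word. Each line gives the 190 bases before the annotated start, 5′ to 3′ on the strand of the gene, from RefSeq on GRCm38.p6, and capitals mark an E2F word or a CCAAT word on either strand. Mcm5 (chr8:75109319-75109508, plus strand) and Mcm6 (chr1:128359706-128359895, minus strand) are helicase genes above background on replicate 2 alone, Mcm7 (chr5:138171884-138172073, minus strand) and Rrm2 (chr12:24708064-24708253, plus strand) were over 2-fold higher on replicate 2, and Orc1 (chr4:108579264-108579453, plus strand) was similar on both arrays.
Mcm5: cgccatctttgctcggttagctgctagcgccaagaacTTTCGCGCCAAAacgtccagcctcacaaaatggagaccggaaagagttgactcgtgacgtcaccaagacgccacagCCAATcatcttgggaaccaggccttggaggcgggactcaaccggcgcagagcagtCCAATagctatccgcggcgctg
Mcm6: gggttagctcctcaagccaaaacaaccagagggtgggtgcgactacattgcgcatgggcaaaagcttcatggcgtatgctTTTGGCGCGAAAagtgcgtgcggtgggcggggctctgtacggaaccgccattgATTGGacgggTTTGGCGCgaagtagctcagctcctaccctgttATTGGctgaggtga
Mcm7: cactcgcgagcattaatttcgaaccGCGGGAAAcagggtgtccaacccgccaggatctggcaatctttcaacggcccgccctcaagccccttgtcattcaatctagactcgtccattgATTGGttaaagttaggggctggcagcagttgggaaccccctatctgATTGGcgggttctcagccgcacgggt
Rrm2: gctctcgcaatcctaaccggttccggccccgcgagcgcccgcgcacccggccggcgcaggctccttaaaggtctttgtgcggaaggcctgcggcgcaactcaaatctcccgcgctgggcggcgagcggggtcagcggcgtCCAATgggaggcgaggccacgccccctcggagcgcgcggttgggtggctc
Orc1: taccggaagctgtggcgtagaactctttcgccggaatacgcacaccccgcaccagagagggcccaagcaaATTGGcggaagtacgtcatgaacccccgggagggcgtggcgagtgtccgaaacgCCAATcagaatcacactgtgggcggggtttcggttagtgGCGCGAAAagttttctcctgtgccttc
The E2F word was TTTCCCGC, TTTCGCGC, TTTGCCGC or TTTGGCGC, and the CCAAT word was CCAAT. In Mcm5 and Mcm6, E2F words on opposite strands overlap in 1 run of capitals. The window printed for Rrm2 holds a CCAAT word and no E2F word. Another annotated start of Mcm7, not printed, also has a CCAAT word and no E2F word.

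Of the listed genes, 42 had a promoter in the table, searched from 250 bases before to 50 after the start. An E2F word lay in 15 of them (35.7%), against 704 of all 27025 genes with a promoter (2.6%). In the 250 bases before the start alone it lay in 9 of the 42 (21.4%), against 2.16% of all genes. A CCAAT word lay in 26 of the 42 (61.9%), against 41.1% of all genes. The CHR word (TTTGAA or TTCGAA, on either strand), known from genes of late cell cycle phases, lay in 8 (19%), against 21.7% of all genes. The words can overlap each other. Among the measured members with a promoter, 6 of the 15 with an E2F word were above background on both arrays and 4 on replicate 2 alone (Mcm5, Mcm6, Lig1 and Uhrf1), and 12 of the 26 without it were above background on both and 5 on replicate 2 alone. Among those above background on both, the median log2 difference was 0.42 for the 6 with the word and 0.66 for the 12 without it. Over 2-fold higher on replicate 2 were 1 of the 6 (Mcm7) and 3 of the 12 (Rrm2, E2f8 and Rpa3). Of all genes above background on both, 3.49% were. Whether the word goes with the difference was not tested. A match is a description of letters, and binding was not measured.

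The values are linear signal intensities, and the authors had scaled both arrays to the same trimmed mean. A probe set counted as above background when its signal passed the 95th percentile of 87 probe sets of sensory receptor genes on that array, which was 131 on replicate 2 and 108 on replicate 1. A gene counted when at least 1 of its probe sets passed, and its values are those of its brightest probe set. Each difference is the log2 signal on replicate 2 less that on replicate 1. It sets 1 array against 1, so no replicate checks it and no p-value is given. Levels of different genes were not compared, since probe sets differ in how strongly they bind.

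Replication and nucleotide synthesis genes passed this background on both arrays about as often as all genes. Those that passed it on 1 array alone passed it on replicate 2. Of the 48 genes, 21 (43.8%) were above background on both arrays, close to the 40.4% of all genes. A further 10 (20.8%) were above it on replicate 2 alone, against 3.53% of all genes. None was above it on replicate 1 alone, against 5.61% of all genes. Of the genes of the whole array that passed on exactly 1 array, 38.7% passed on replicate 2. The remaining 17 members (35.4%) passed on neither, against 50.2% of all genes. With a background read instead from genes of other organs, 9 members (18.8%) passed on both arrays, against 30.6% of all genes. Of these 9, 1 was over 2-fold higher on replicate 2, against 1.96% of all genes that passed. Counted by probe set, 34 of the 107 passed on both arrays, 19 on replicate 2 alone and 0 on replicate 1 alone. Of all single-gene probe sets, 35.5% passed on both, 3.25% on replicate 2 alone and 5.47% on replicate 1 alone. These calls do not move with a linear rescaling of an array, since its background is read on the same array.

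**Figure D1:**
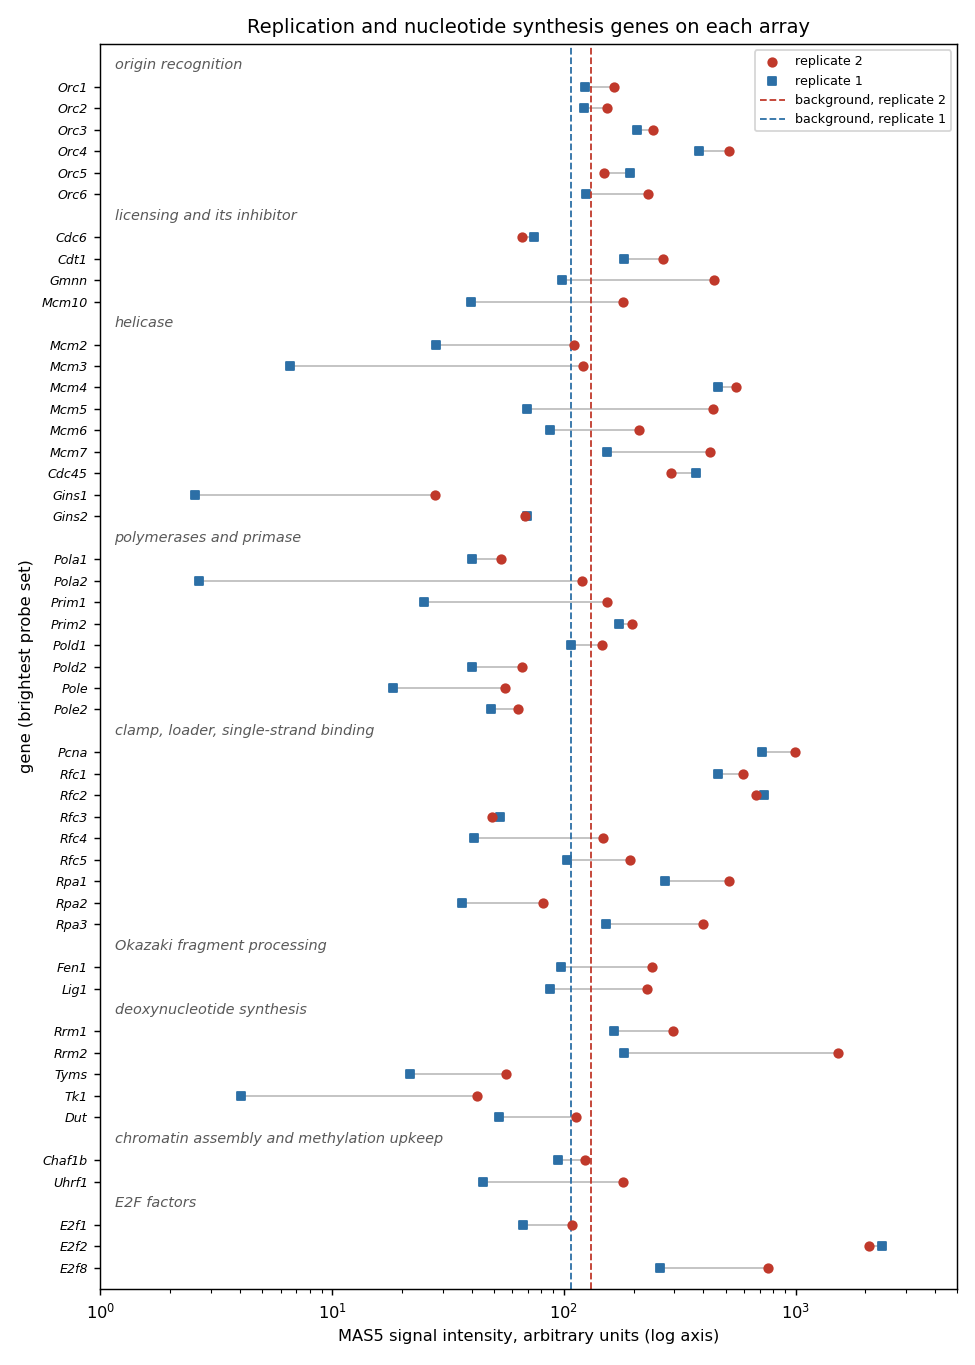
Signal of the brightest probe set of each of the 48 measured genes on replicate 2 (circles) and replicate 1 (squares), on a log axis, by role; dashed lines are the background, 131 on replicate 2 and 108 on replicate 1. All 6 origin recognition genes lie right of the line of each array, and 10 genes lie right of the line on replicate 2 alone.

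All 6 genes of the origin recognition complex were above background on both arrays, where 40.4% of all genes were. Orc1, its largest subunit, had signals of 165 on replicate 2 and 124 on replicate 1, and Orc2 had 153 on replicate 2 and 123 on replicate 1. Orc3 had 242 on replicate 2 and 208 on replicate 1. These genes lay less than 2-fold above the background of their arrays. Orc4 had 518 on replicate 2 and 382 on replicate 1. Orc5 had 149 on replicate 2 and 194 on replicate 1 and was the member of the complex with the lower signal on replicate 2. Orc6 had 231 on replicate 2 and 124 on replicate 1, a log2 difference of 0.89. None of the 6 differed over 2-fold. Of all genes above background on both arrays, 3.49% were over 2-fold higher on replicate 2 and 2% lower. Orc4 was read by 3 probe sets above background on both arrays, whose log2 differences ran between -0.22 and 0.44, so its direction depended on the probe set.

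Of 4 genes that load the helicase, restrain its loading or help it start, 1 (25%) passed on both arrays, against 40.4% of all genes. Another 2 (50%) passed on replicate 2 alone, against 3.53% of all genes, and 1 (25%) on neither, against 50.2%. Cdt1, which brings the MCM ring to origins, had 269 on replicate 2 and 183 on replicate 1, above background on both. Gmnn, which binds and blocks Cdt1, had 444 on replicate 2 and 98.1 on replicate 1. Its signal on replicate 1 was below background, so that it was at least 4.13-fold higher on replicate 2, the highest such bound among the members with the authors' scaling. Each such bound sets the signal on replicate 2 against the background of replicate 1, 108, and holds only with that scaling. The background of replicate 2 was higher, 131, so a gene that only just passed there has a bound above 1 by this rule alone. Mcm10, which helps the loaded helicase start, had 181 on replicate 2 and 39.9 on replicate 1, at least 1.68-fold higher. Cdc6, the other loading factor, was below background on both, at 65.9 on replicate 2 and 74.3 on replicate 1.

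The 6 genes of the MCM ring, whose proteins work as 1 complex, did not share a call against background on these arrays. Mcm4 had 551 on replicate 2 and 464 on replicate 1, a log2 difference of 0.25. Mcm7 had 427 on replicate 2 and 154 on replicate 1, 2.78-fold higher on replicate 2. All 4 probe sets of Mcm7 passed on both and were higher on replicate 2, by 0.68 to 1.47 on the log2 scale. Mcm5 had 439 on replicate 2 and 69.5 on replicate 1, at least 4.07-fold higher, read on 1 of its 3 probe sets. Mcm6 had 211 on replicate 2 and 86.9 on replicate 1, at least 1.96-fold higher. Both lay above background on replicate 2 and below it on replicate 1. Mcm2, with 111 on replicate 2 and 28.2 on replicate 1, and Mcm3, with 122 on replicate 2 and 6.59 on replicate 1, were below background on both arrays, as was each of the 5 probe sets of Mcm3. A signal below background gives no level, so no fold is given for Mcm2 and Mcm3. Whether they differ from Mcm5 and Mcm6 cannot be read.

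The partners that complete the moving helicase gave no clear difference. The probe sets of Cdc45 went opposite ways: the brightest had 289 on replicate 2 and 373 on replicate 1, and the other had 374 on replicate 2 and 221 on replicate 1, all above background. Gins1, at 27.7 on replicate 2 and 2.57 on replicate 1, and Gins2, at 67.7 on replicate 2 and 69.5 on replicate 1, were below background on both.

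Of the 8 polymerase and primase genes, 5 (62.5%) were below background on both arrays, against 50.2% of all genes. These were Pola1, Pola2, Pold2, Pole and Pole2. Their signals lay between 53.6 and 120 on replicate 2 and between 2.67 and 48.3 on replicate 1. Pold1, the catalytic subunit of polymerase delta, had 146 on replicate 2 and 108 on replicate 1, which is at the background of that array. Its other probe set had 175 on replicate 2 and 10.7 on replicate 1. Prim2, the large primase subunit, had 197 on replicate 2 and 173 on replicate 1, with a log2 difference of 0.19. Prim1, the catalytic primase subunit, had 153 on replicate 2 and 25.0 on replicate 1, at least 1.42-fold higher. The 2 other probe sets of Prim2 passed on replicate 2 alone, as the brightest of Prim1 did. They had 144 on replicate 2 and 95.2 on replicate 1, and 145 on replicate 2 and 106 on replicate 1. The different calls of the 2 primase subunits on replicate 1 therefore rest on 1 probe set of Prim2.

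The sliding clamp and 2 of the 5 subunits of its loader were well above background on both arrays. Of all genes, 40.4% passed on both. Pcna had 991 on replicate 2 and 714 on replicate 1, a log2 difference of 0.47. Rfc1, the large subunit of the clamp loader, had 592 on replicate 2 and 465 on replicate 1, and its 3 probe sets were all higher on replicate 2, by 0.18 to 0.65. Rfc2, a small subunit, had 677 on replicate 2 and 731 on replicate 1. None of these 3 genes reached a 2-fold difference. The other small subunits were not above background on both arrays. Rfc4 had 148 on replicate 2 and 40.8 on replicate 1, at least 1.37-fold higher, and Rfc5 had 193 on replicate 2 and 103 on replicate 1, at least 1.79-fold higher. Rfc3 was below background on both, at 48.9 on replicate 2 and 53.2 on replicate 1.

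Genes of the single-strand binding complex RPA and of the enzymes that join lagging-strand fragments were higher on replicate 2 where they could be read. Rpa1, the large subunit of RPA, had 516 on replicate 2 and 272 on replicate 1, a log2 difference of 0.92. Rpa3, the small subunit, had 398 on replicate 2 and 152 on replicate 1, 2.63-fold higher. Rpa2 was below background on both, at 81.5 on replicate 2 and 36.2 on replicate 1. The flap nuclease gene Fen1 had 240 on replicate 2 and 97.4 on replicate 1, at least 2.23-fold higher, and both of its probe sets passed on replicate 2 alone. The ligase gene Lig1 had 229 on replicate 2 and 86.8 on replicate 1, at least 2.13-fold higher.

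Rrm2 stood apart among the nucleotide synthesis genes and among all members. It encodes the subunit of ribonucleotide reductase that is made in S phase and limits the supply of deoxynucleotides. Its signals were 1524 on replicate 2 and 181 on replicate 1, 8.41-fold higher on replicate 2. Its 2 other probe sets gave the same order, with 820 on replicate 2 and 140 on replicate 1 on one, and 354 on replicate 2 and 56.2, below background, on replicate 1 on the other. Of all 7354 genes above background on both arrays, 0.068% had a difference as high as that of Rrm2, itself included. Rrm1, the large subunit, which is known to be more stable through the cell cycle, had 295 on replicate 2 and 165 on replicate 1, a log2 difference of 0.84. A second probe set of Rrm1 had 224 on replicate 2 and 22.6 on replicate 1. The thymidylate genes were not read above background: Tyms (thymidylate synthase) had 56.1 on replicate 2 and 21.7 on replicate 1, and Tk1 (thymidine kinase) had 42.0 on replicate 2 and 4.05 on replicate 1. Dut (dUTPase) had 112 on replicate 2 and 52.6 on replicate 1.

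Uhrf1, which guides DNA methylation onto new strands, had 180 on replicate 2 and 44.8 on replicate 1, at least 1.67-fold higher. Chaf1b, a subunit of the histone chaperone CAF-1, was below background on both, at 123 on replicate 2 and 94.3 on replicate 1. The E2F genes differed from each other. E2f2, an activating factor, had 2081 on replicate 2 and 2362 on replicate 1, a log2 difference of -0.18, and its second probe set was also lower on replicate 2, at 1087 against 1308 on replicate 1. E2f8, a repressing factor that is itself induced in S phase, had 759 on replicate 2 and 259 on replicate 1, 2.93-fold higher, and its second probe set was below background on both. E2f1, the best-known activator, was below background on both, at 108 on replicate 2 and 66.5 on replicate 1.

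With the authors' scaling, 17 of the 21 members that passed on both arrays were higher on replicate 2 and 4 lower, where 56.3% of all 7354 such genes were higher. The median log2 difference was 0.43, against 0.07 over all 7354 genes. Over 2-fold higher were 4 members (19%): Rrm2, E2f8, Mcm7 and Rpa3, where 3.49% of all genes were. With the mean of all probe sets of a gene, 6 members were over 2-fold higher (28.6%), against 5.24% of all genes. There E2f8 was at 0.06 on the log2 scale and no longer among them, while Cdt1 at 1.19, Pold1 at 2.23 and Rpa1 at 1.67 were. Orc1 at -0.42 and Cdc45 at 0.20 had turned direction. Except for Cdc45, these means include a probe set below background on replicate 1 or on both arrays, which gives no level. Without probe sets ending in _x_at or _s_at, Mcm7 was at 0.68, and 3 members were over 2-fold higher, against 3.18% of all genes. No member was over 2-fold lower, where 2% of all genes were. Of the 10 members above background on replicate 2 alone, 4 were at least 2-fold higher by their bound (Gmnn, Mcm5, Fen1 and Lig1), where 16% of all such genes were. The bounds hold with the authors' scaling and were not read with any other. With the arrays scaled to the hybridisation controls, the median of all genes was -0.65 and that of the members -0.28, and 7 of the 21 were higher on replicate 2, against 8.35% of all genes. The 7 were Orc6, Mcm7, Rpa1, Rpa3, Rrm1, Rrm2 and E2f8. Of the members Rrm2 alone was over 2-fold higher with that scaling, against 0.449% of all genes, and 2 were over 2-fold lower, Orc5 at -1.09 and Cdc45 at -1.08, against 20.9% of all genes. Relative to the median of all genes, the members' median was 0.36 with the authors' scaling and 0.37 with the controls, and 17 of 21 lay above the median of all genes under both. Scaling to the controls multiplies every signal of replicate 2 by 1 factor. It shifts all genes nearly alike, so these relative values could hardly change and are no check.

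**Figure D2:**
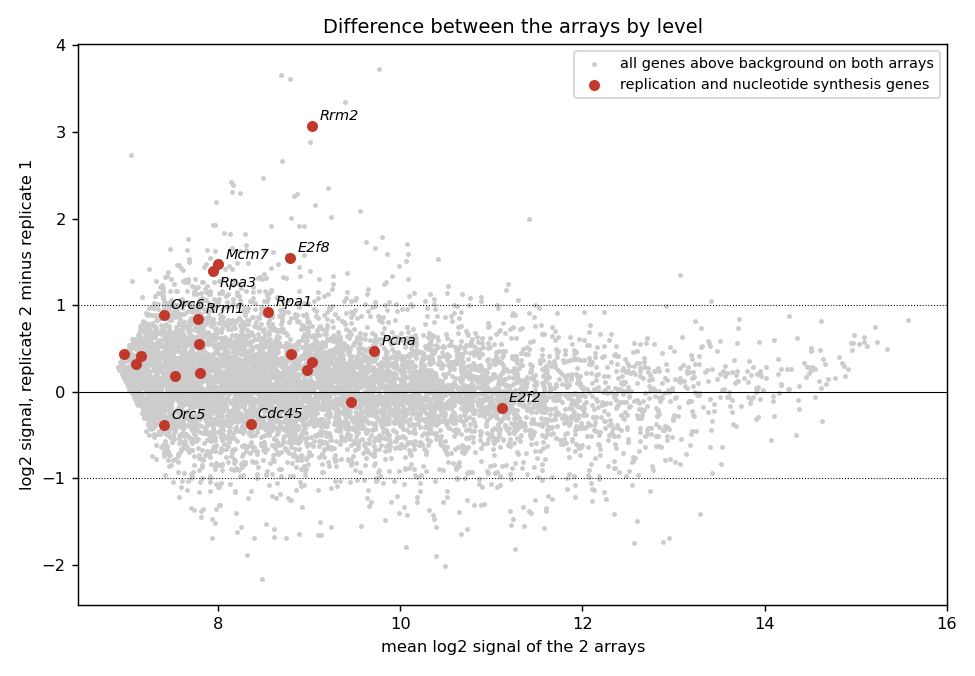
Log2 signal of replicate 2 minus replicate 1 (vertical) against mean log2 signal (horizontal) for the 7354 genes above background on both arrays (grey) and the 21 replication and nucleotide synthesis genes among them (red), with the authors' scaling; dotted lines mark 2-fold. Rrm2 at 3.07 lies near the top of all genes and E2f2 at -0.18 inside the bulk.

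The differences of 14 of the 21 members were of a size that is common among genes of like brightness. The background was higher on replicate 2 than on replicate 1 by 0.29 on the log2 scale, so that a gene only just above background on both was higher on replicate 2 by this filter alone. In the dimmest tertile by level, 65.7% of the 2451 genes were higher on replicate 2, with a median of 0.18, and 5.51% were over 2-fold higher. That tertile held 11 of the 21 members, with a median of 0.43, of which 2 were over 2-fold higher. The middle tertile held 9 members with a median of 0.44, against 0.08 over its 2451 genes, and 2 were over 2-fold higher, against 3.51%. Of the genes in its own tertile, a difference as high was found in 0.163% for Rrm2, 0.938% for Mcm7, 1.10% for E2f8 and 1.39% for Rpa3. The share was 4.41% for Rpa1 and 8.98% for Rrm1, with Orc6 between them. For each of the other 14 members, including Pcna, at least 18.3% of the genes in its tertile had a difference as high.

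Where several probe sets of a member passed on both arrays, they pointed the same way in 5 of 8 members. In Mcm4, Mcm7, Rfc1 and Rrm2 all such probe sets were higher on replicate 2, in E2f2 both were lower, and in Orc4, Cdc45 and Rfc2 they disagreed. Without any filter, 41 of the 48 brightest probe sets (85.4%) were higher on replicate 2, against 55.1% of all genes. This count includes 17 members below background on both arrays, of which 14 were higher on replicate 2. Their signals lay between 27.7 and 123 on replicate 2 and between 2.57 and 94.3 on replicate 1.

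Other genes of the same process, from lists that do not overlap with the members, were also higher on replicate 2 in most cases with the authors' scaling. With the arrays scaled to the hybridisation controls the median of all 44 further genes above background on both arrays, those of the E2F network and of nucleotide salvage included, was -0.36, against -0.65 for all genes. Of 32 measured further replication genes, 15 (46.9%) were above background on both arrays, 7 (21.9%) on replicate 2 alone and 1 (3.12%) on replicate 1 alone. Over all genes the shares were 40.4% on both, 3.53% on replicate 2 alone and 5.61% on replicate 1 alone. Of the 15, 11 (73.3%) were higher on replicate 2 and 6 (40%) over 2-fold so, against 56.3% and 3.49% of all genes. The median log2 difference of the 15 was 0.48. Top2a, which untangles copied DNA, had 1402 on replicate 2 and 190 on replicate 1. Dbf4, the activator of the kinase that fires origins, had 636 on replicate 2 and 129 on replicate 1, and Topbp1, which helps load Cdc45, had 745 on replicate 2 and 250 on replicate 1. The other 3 were Pole3 (282 on replicate 2 and 108 on replicate 1) and Pole4 (330 on replicate 2 and 155 on replicate 1), histone-fold subunits of polymerase epsilon, and Cdc25a (801 on replicate 2 and 377 on replicate 1), a phosphatase that opens S phase. The 3 brightest of the list stayed under 2-fold. Top1, which relieves twisting ahead of the fork, had 1978 on replicate 2 and 2635 on replicate 1. Rnaseh2c, a subunit of the nuclease that removes ribonucleotides from DNA, had 1866 on replicate 2 and 1469 on replicate 1, and Ssbp1, which binds single-stranded mitochondrial DNA, had 1553 on replicate 2 and 1468 on replicate 1. Of 8 further chromatin genes, 4 (50%) were above background on both, against 40.4% of all genes. All 4 were higher on replicate 2, where 56.3% of all genes were. A further 3 (37.5%) passed on replicate 2 alone and 1 (12.5%) on replicate 1 alone, against 3.53% and 5.61% of all genes. Dnmt1, the maintenance DNA methyltransferase that works with Uhrf1, was 2.16-fold higher, with 441 on replicate 2 and 204 on replicate 1. The histone-binding protein gene Rbbp4 had 2818 on replicate 2 and 2121 on replicate 1, and Supt16, a subunit of the histone chaperone FACT, had 776 on replicate 2 and 639 on replicate 1. The histone chaperone gene Asf1b was above background on replicate 2 alone, with 548 on replicate 2 and 38.0 on replicate 1, at least 5.09-fold higher.

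**Figure D3:**
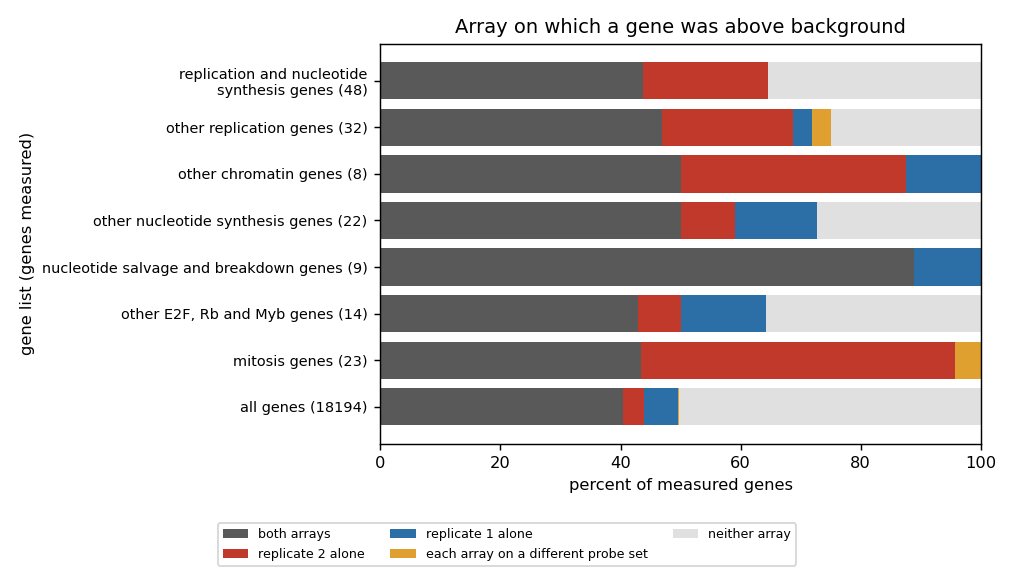
Percent of the measured genes of each list that were above background on both arrays, on replicate 2 alone, on replicate 1 alone, on each array by a different probe set, or on neither. The 48 replication and nucleotide synthesis genes have a 20.8% share on replicate 2 alone and none on replicate 1 alone, and all genes have 3.53% on replicate 2 alone and 5.61% on replicate 1 alone.

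Further genes of nucleotide synthesis included some that were higher on each array. Of 22 further synthesis genes, 11 (50%) were above background on both arrays, against 40.4% of all genes. Of the 11, 8 (72.7%) were higher on replicate 2, against 56.3% of all genes. The median log2 difference of the 11 was 0.36. Dtymk, the kinase that makes thymidine diphosphate, was 2.31-fold higher, with 510 on replicate 2 and 221 on replicate 1. Dck, the salvage kinase for deoxycytidine, which was placed in this list, was over 2-fold lower on replicate 2, with 4600 against 10190 on replicate 1. Cmpk1, a kinase for pyrimidine monophosphates, had 4123 on replicate 2 and 3216 on replicate 1, and Adss, an enzyme of adenylate synthesis, had 1181 on replicate 2 and 972 on replicate 1. Passing on replicate 2 alone were 2 genes (9.09%) and on replicate 1 alone 3 (13.6%), against 3.53% and 5.61% of all genes. Mitosis genes, set beside them, had a higher median. Of 23 measured, 10 (43.5%) were above background on both, all higher on replicate 2 (median 2.15). A further 12 (52.2%) were above it on replicate 2 alone, against 3.53% of all genes. Of the 10, 8 (80%) were over 2-fold higher, against 3.49% of all genes. Cdc20, an activator of the anaphase-promoting complex, had 1556 on replicate 2 and 127 on replicate 1, 12.3-fold higher, and Mki67, a marker of cycling cells, had 2149 on replicate 2 and 212 on replicate 1. The other 6 were Cdca8 (6.35-fold), Ube2c (5.52-fold), Ccnb2 (5.23-fold), Ncaph (3.76-fold), Birc5 (3.54-fold) and Ccna2 (3.07-fold). Cenpa, the centromeric histone, had 971 on replicate 2 and 513 on replicate 1. The difference between the medians of these lists was not tested.

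**Figure D4:**
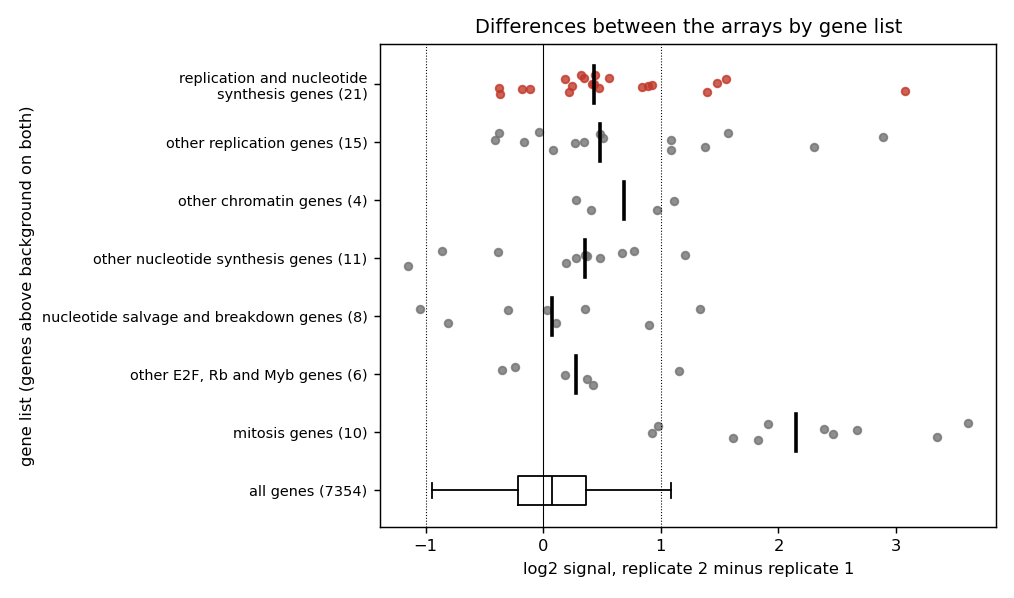
Log2 signal of replicate 2 minus replicate 1 for the genes above background on both arrays (points), by list, with the authors' scaling; black bars are medians, and for all genes the box spans the quartiles and the whiskers the central 95%. The median is 0.43 for the 21 replication and nucleotide synthesis genes, 2.15 for the mitosis genes and 0.07 for all genes.

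Markers of other cells and of neutrophil maturity were read on the same arrays. Of 10 B cell markers, 1 was above background on both arrays, and their summed signal was 865 on replicate 2 and 610 on replicate 1, with Cd79a, Cd79b, Vpreb1, Ebf1, Rag1 and Dntt below background on each. Ms4a1 (158 on replicate 2 and 72.6 on replicate 1) and Pax5 (174 on replicate 2 and 88.8 on replicate 1) passed on replicate 2 alone, and Vpreb3 on replicate 1 alone. Of 7 stem and progenitor markers, 1 was (Kit, with 547 on replicate 2 and 244 on replicate 1), and the sums were 1030 on replicate 2 and 694 on replicate 1, with Flt3, Cd34, Meis1 and Mecom below background on each, Hlf above it on replicate 2 alone and Gata2 on replicate 1 alone. Of 9 erythroid markers, 3 were, and the sums were 1107 on replicate 2 and 1291 on replicate 1, with Hba-a1, Gata1 and Ermap below background on each and Alas2, Slc4a1 and Rhd above it on replicate 1 alone. Of 7 monocyte markers, 3 were, and the sums were 2723 on replicate 2 and 5848 on replicate 1, mostly Csf1r, which is also in the list of mature neutrophils, with Ms4a6c, Irf8 and Klf4 below background on each. Of 8 macrophage markers, 3 were, and the sums were 926 on replicate 2 and 1479 on replicate 1, with C1qa, C1qc, Mertk and Mrc1 below background on each. The macrophage marker Adgre1 had 217 on replicate 2 and 627 on replicate 1. Of 11 markers of early neutrophils, 7 were, and the sums were 156883 on replicate 2 and 100786 on replicate 1, with Elane, Prtn3 and Ctsg below background on each. Nearly all of these sums came from Chil3, Camp, Ngp and Ltf. Camp, Ngp and Ltf are also in the list of 12 neutrophil markers, whose sums were 389853 on replicate 2 and 274354 on replicate 1. Of these 12, 10 were higher on replicate 2, so the early sums are not particular to early cells. Among the dimmer early markers, Gfi1 had 560 on replicate 2 and 180 on replicate 1, and Fcnb had 355 on replicate 2 and 147 on replicate 1. Mpo, with 187 on replicate 2 and 98.2 on replicate 1, passed on replicate 2 alone. Ctsc was lower on replicate 2, with 306 against 771 on replicate 1. All 9 markers of mature neutrophils were above background on both, and the sums were 52153 on replicate 2 and 82181 on replicate 1. Their log2 differences had a median of -1.38, with 8 lower on replicate 2. The exception was Mmp9, the brightest, which had 32063 on replicate 2 and 28176 on replicate 1. The part of these cells in the differences of the replication genes was not tested.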

How the data were processed

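The authors used MAS5, per the submitters' processing notes, to make the deposited signal intensities of 45101 probe sets on 2 arrays, on a linear scale. Its version and settings were not given in the sources used here. Precision is limited by the number of arrays. GEO's platform annotation gave 34958 probe sets 1 gene, 932 several and 9211 none here. The gene identifiers of all 48 measured members were found in the NCBI gene table (GRCm38.p6), and no symbol changed. Background was the 95th percentile of 87 probe sets of 78 sensory receptor genes on each array. The probe set with the highest mean signal stood for a gene, on the log2 scale with a floor of 1. A gene below background on replicate 1 was given a bound against that background. Levels were split into tertiles over all genes above background on both arrays. The members, the other lists and the comparisons were chosen with earlier results of these data known. Every member with a probe set is named; genes of other lists are named where they were above background on both arrays and over 2-fold different, or among the 3 brightest of their list, and Asf1b and the cell markers were named after their values were seen. The gene step was tested on simulated data made from replicate 1, with less noise between arrays than in the real data. That test cannot show how genes near background behave on the real arrays. Alternatives were other background percentiles or genes, other scalings, 32 added to the signal, other probe set rules and no filter. Python 3.11.15, numpy 2.4.6 and pandas 2.3.3 were used.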

Additional observations from a re-analysis of the deposited data

Results flagged for a closer look

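A probe set annotated to both Tyms and its pseudogene Tyms-ps had a signal of 152.2 on replicate 2, above the background of 131, and of 29.9 on replicate 1, below the background of 108. It was kept out of the comparisons because it names more than 1 gene, and none of the 4 probe sets of Tyms alone was above background on either array. The other probe set that names a member together with another gene, Orc4 with Acvr2a, was below background on both, at 130.8 on replicate 2 and 99.1 on replicate 1.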

How the results depend on the processing

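The median log2 difference of the members stayed above 0 under every alternative run except scaling to the 9 hybridisation control probe sets. There it was -0.28 and that of the 44 other replication, chromatin, nucleotide and E2F genes -0.36, against -0.65 for all genes. Relative to all genes the members' median was 0.28 to 0.40 over the other alternatives with a filter. Scaling an array by 1 factor shifts all genes nearly alike, so it does not test that relative median. The count of members over 2-fold higher on replicate 2, 4 as reported, was 1 with those controls (0.449% of all genes), 1 with a background from genes of other organs (1.96% of all genes) and 22 without a filter (16% of all genes). Members above background on both arrays, 21 as reported, were 9 (18.8%) with the background from genes of other organs, against 30.6% of all genes; taking each array alone gave 21 to 31. Of 126 values of single members under alternatives, 96 moved by less than the SD of all genes' differences (0.51), 30 by more, and none over 2-fold changed sign. Without probe sets ending in _x_at or _s_at, Rrm2 was at 2.55 and Mcm7 at 0.68, and with the mean of all probe sets E2f8 was at 0.06. That mean includes a probe set of E2f8 below background on both arrays. The share of the members with an E2F word was 21.4% in the 250 bases before the start alone, against 2.16% of all genes. No paired analysis was possible because the labels give 1 group. Signals near background limit most members.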

Other observations

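Genes that recycle or break down nucleotides, which cells need whether or not they divide, were nearly all above background. Of 9 measured genes of nucleotide salvage and breakdown, 8 (88.9%) were above background on both arrays, against 40.4% of all genes. With the authors' scaling, 5 of the 8 (62.5%) were higher on replicate 2, where 56.3% of all genes were. Their median log2 difference was 0.07, as was that of all genes. Rrm2b, the small ribonucleotide reductase subunit used outside S phase, was placed in this list although its enzyme makes deoxynucleotides. It had 1048 on replicate 2 and 1023 on replicate 1. Samhd1, which degrades deoxynucleotides in myeloid cells, had 4515 on replicate 2 and 7893 on replicate 1. Pnp, purine nucleoside phosphorylase, had 1555 on replicate 2 and 1213 on replicate 1. Ada, adenosine deaminase, was 2.52-fold higher on replicate 2, with 979 against 388 on replicate 1, and Upp1, uridine phosphorylase, was over 2-fold lower, with 278 on replicate 2 against 577 on replicate 1.

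Of 14 other genes of the E2F and retinoblastoma network, 6 (42.9%) were above background on both arrays, against 40.4% of all genes. The median log2 difference of the 6 was 0.28. On replicate 2 alone 1 gene (7.14%) passed and on replicate 1 alone 2 (14.3%), against 3.53% and 5.61% of all genes. Rbl1, which encodes the pocket protein p107, was 2.23-fold higher on replicate 2, with 441 against 198 on replicate 1. Rb1 had 1174 on replicate 2 and 873 on replicate 1, and the E2F partner gene Tfdp1 had 4560 on replicate 2 and 3522 on replicate 1. Lin54, a DNA-binding subunit of the MuvB complex, had 980 on replicate 2 and 1154 on replicate 1. These differences compare 1 array with 1 array.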
